A study of Homo sapiens with 31 samples.

Results

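The integrated stress response and the unfolded protein response were followed through 39 named genes, chosen by symbol and role, with no threshold on their values but with earlier results of these data known, among the 57992 gene identifiers of the steady-state tables and the 43682 genes of the actinomycin D tables. PANC-1 is an established human pancreatic cancer cell line, and the KHSRP protein binds AU-rich messenger RNAs and is known for hastening their decay. Steady-state RNA-seq compared 3 libraries labelled KHSRP knockout (KO) with 3 labelled NC, whose genotype label is wild type. In the other set, cells of both labels carried a label for 0, 2, 4, 6 or 8 h in the transcription blocker actinomycin D, and each genotype and time had 2 libraries. The labels do not give the number of knockout clones. They do not say whether replicates were separate cultures either, and the p-values therefore reflect the spread among these libraries alone, possibly technical. The 3 miCLIP and 2 PAR-CLIP samples were not analysed here. The study's design text asks how KHSRP affects gene expression and the lifetime of transcripts. All 39 members passed the filter on low counts in both sets.

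The unfolded protein response starts when misfolded proteins gather in the endoplasmic reticulum (ER) and is carried by the membrane sensors PERK (the EIF2AK3 product), IRE1α (ERN1) and ATF6. PERK phosphorylates the translation factor eIF2α, the step it shares with the kinases of the integrated stress response. General translation then slows while the transcription factor ATF4 is made in larger amounts, and ATF4 with its partners drives genes of amino acid synthesis and transport, of feedback control and of cell death. IRE1α splices the XBP1 messenger RNA, and XBP1 and cleaved ATF6 drive ER chaperones and the machinery of ER-associated degradation. The members were grouped by these roles: 4 sensors and sensor-proximal factors, 2 regulators of the eIF2α phosphatase, 6 transcription factors, 4 ATF4-dependent effectors, 8 genes of amino acid synthesis and transport, 11 ER chaperones and folding enzymes, and 4 genes of ER-associated degradation.

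Promoter sequence was available for 36 members, from RefSeq (GRCh38.p14), as windows of 300 bases from 250 before the start of the gene to 50 after it. NUPR1, SHMT2 and SLC7A11 had no entry. The ER stress response element (ERSE), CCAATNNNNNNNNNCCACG, read on both strands, was in the windows of 6 members (16.7%): CALR, CRELD2, HSP90B1, HSPA5, PDIA6 and XBP1. It was in 0.0769% of all 35116 promoter windows. A shorter element, ERSE-II (ATTGGNCCACG), was in the windows of HERPUD1, HYOU1 and SDF2L1, 8.33% of the members searched, and in 0.0541% of all windows. The composite site for C/EBP and ATF factors, TGATGNAA, was in 7 members (ASNS, CEBPG, CHAC1, HERPUD1, PPP1R15B, SLC3A2 and SLC7A1), or 19.4%, and in 3.62% of all windows. The searched ERSE and ERSE-II letters share the CCACG end, and a match describes the sequence only. Members were counted by gene and the whole set by promoter window, so these shares differ in unit. The stretches below are examples from members with a match. Capitals mark the matched element, given as its reverse complement in HYOU1 and CHAC1.
HSPA5, GRCh38.p14 chr9:125241366-125241434, minus strand: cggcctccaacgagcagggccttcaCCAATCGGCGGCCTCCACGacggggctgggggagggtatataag
HSP90B1, GRCh38.p14 chr12:103930191-103930259, plus strand: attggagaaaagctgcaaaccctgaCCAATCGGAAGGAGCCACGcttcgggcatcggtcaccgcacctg
XBP1, GRCh38.p14 chr22:28800578-28800646, minus strand: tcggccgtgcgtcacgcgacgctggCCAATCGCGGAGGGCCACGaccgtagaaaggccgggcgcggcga
HYOU1, GRCh38.p14 chr11:119057249-119057309, minus strand: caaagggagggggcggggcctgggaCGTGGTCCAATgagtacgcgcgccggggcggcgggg
HERPUD1, GRCh38.p14 chr16:56932000-56932060, plus strand: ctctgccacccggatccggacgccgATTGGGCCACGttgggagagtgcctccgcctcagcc
CHAC1, GRCh38.p14 chr15:40953237-40953294, plus strand: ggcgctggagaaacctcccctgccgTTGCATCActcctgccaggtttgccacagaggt
ASNS, GRCh38.p14 chr7:97872444-97872501, minus strand: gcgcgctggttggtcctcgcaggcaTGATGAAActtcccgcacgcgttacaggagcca

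Depth ran from 33706181 to 43278138 total counts in the steady-state libraries and from 19177934 to 25768060 in the actinomycin D libraries. Levels are counts scaled to library size (CPM) by edgeR's TMM method. KHSRP stood at 10.6, 9.89 and 9.49 CPM in the steady-state KO libraries and at 64.4, 65.7 and 64.9 in NC, a log2 change of -2.70 (SE 0.08, adjusted p = 4.52e-07). In the actinomycin D set its range was 134 to 156 CPM under the KO label and 375 to 460 under the NC label, over 10 libraries each. The position of the knockout lesion was not given in the labels. The epithelial keratins KRT8 and KRT18 were at 976 CPM or more in all 26 libraries, and the acinar and endocrine marker lists summed to 0.646 CPM or less in every library. EPCAM and CDH1, of the same epithelial list, were low. Mean EPCAM was 1.7 CPM in KO and 2.9 in NC in steady state, and 6.9 and 0.7 in the actinomycin D set. Mean CDH1 was 11.0 and 15.4, then 2.6 and 0.5. In steady state KRT7 was at 4.71 to 5.39 CPM in KO and 3.43 to 4.41 in NC, and KRT19 at 308 to 354 and 301 to 345. The genotype labels of the actinomycin D set, however, separated more than KHSRP. CDKN2A, which is known to be deleted in PANC-1, had 0 counts in all 10 libraries labelled KO and 125 to 247 CPM in all 10 labelled NC; in the steady-state set it was at 0.172 CPM or less. KRT19 was 372 to 415 CPM under the KO label and 0 to 0.672 under the NC label, and KRT7 was 8.61 to 19.1 against 541 to 961. Of the immune markers, CD68 was at 89.6 to 114 CPM in the steady-state KO libraries and 60.4 to 63 in NC, and at 111 to 247 against 9.95 to 13.8 in the actinomycin D set, while the mean levels of PTPRC and CD3E were near 0. The part of CD68-expressing cells in the results was not tested. A difference between the genotype labels in the actinomycin D set therefore cannot be told apart from a difference between the cells that gave the libraries.

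In steady-state cells 6 of the 8 genes of amino acid synthesis and transport were higher in KO, and 1, SLC7A11, was lower. Of the 6 transcription factors ATF4 and ATF5 were higher, of the 4 effectors TRIB3 and CHAC1, and of the 2 phosphatase regulators PPP1R15A; the other factors and effectors did not pass. Genes of ER folding and degradation were mostly lower or did not pass: HSP90B1, DNAJB9, DNAJC3, HSPA5, SEL1L, EDEM1 and EDEM3 were lower, and CALR alone of 15 was higher. This split depends on scaling: with counts adjusted for transcript length, 3 chaperones were higher and 3 lower. In all, 12 of 39 members were higher (30.8%), beside 24.4% of the 17240 genes tested, and 11 were lower (28.2%), beside 26.3%. The KO and NC libraries did not overlap for 27 members (69.2%), beside 60% of all genes tested. The median log2 change was 0.16 over the members and 0.02 over all genes. These shares are near those of the whole transcriptome, so the description rests on the roles and single members. In bulk libraries, less transcript in each cell and fewer cells that hold it cannot be told apart.

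**Figure D1:**
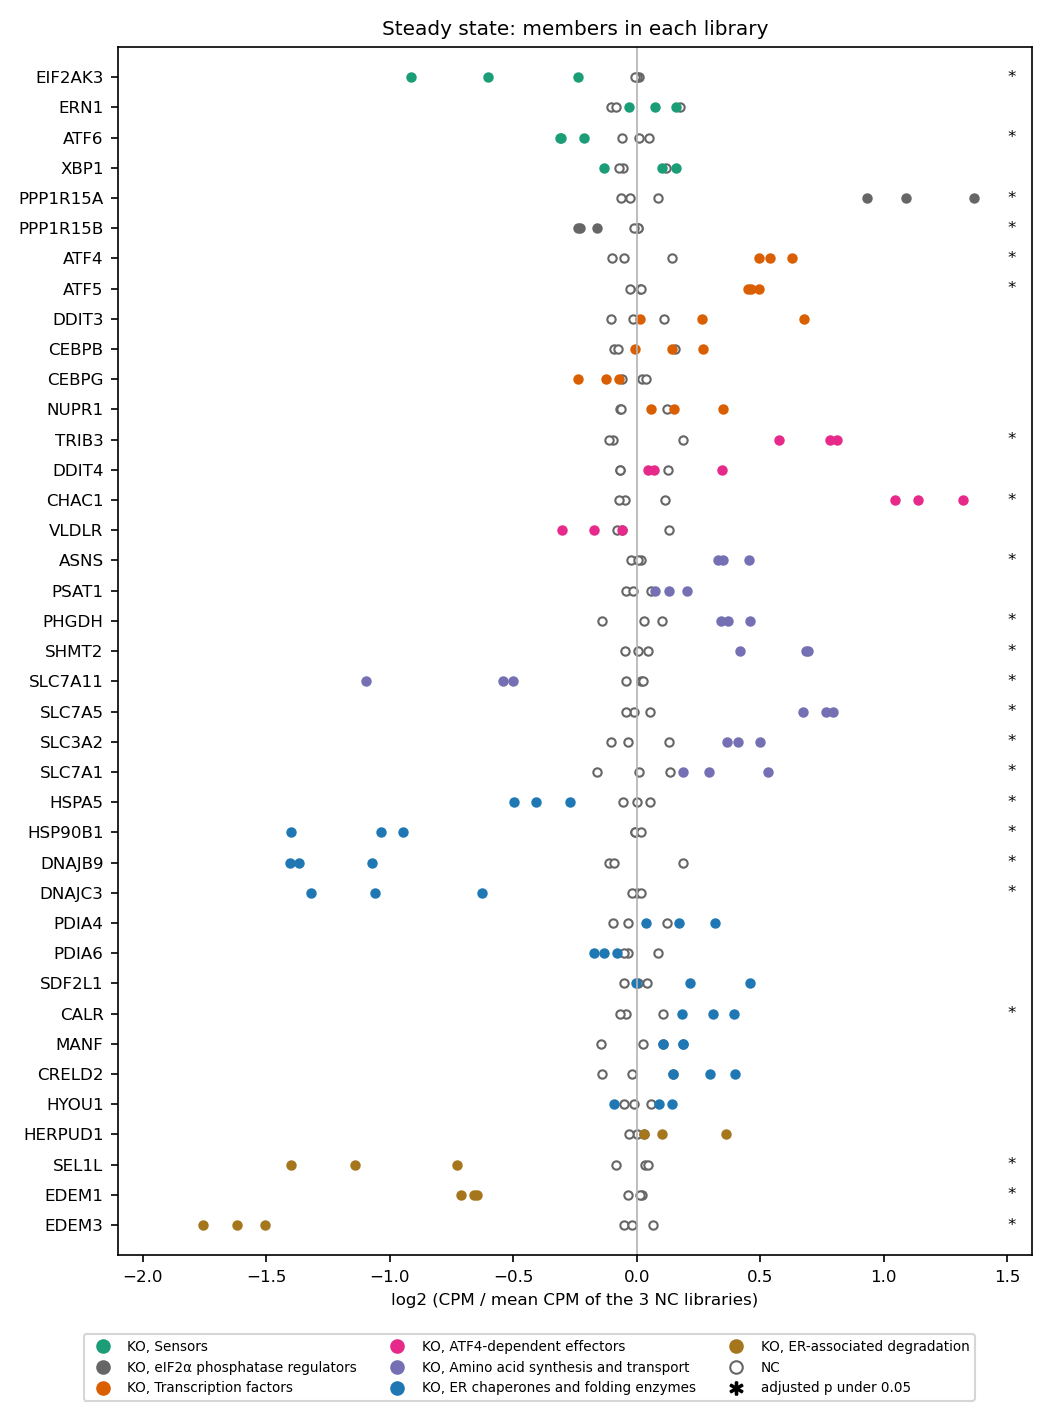
Level of each of the 39 members in each steady-state library, as log2 of its CPM over the mean of the 3 NC libraries (x axis); filled points are KO libraries coloured by role, open points are NC libraries, and asterisks mark an adjusted p under 0.05 (edgeR). CHAC1 and PPP1R15A lie farthest to the right, and EDEM3 and DNAJB9 farthest to the left.

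Of the sensors, EIF2AK3, the gene of the kinase PERK (hg19 chr2:88856259-88926982, minus strand), was lower in KO by a log2 change of -0.56 (SE 0.14, adjusted p = 0.00905). Its KO libraries spread from 24.6 to 39.3 CPM while the NC libraries lay between 46.1 and 46.6. ATF6 was lower by -0.27 (SE 0.07, adjusted p = 0.0121), but its sign turned to 0.28 (adjusted p = 0.0222) when the counts were adjusted for transcript length. ERN1 and XBP1 did not pass. XBP1 (hg19 chr22:29190548-29196557, minus strand) was at 22.1, 26.0 and 27.0 CPM in KO and 23.3, 23.0 and 26.3 in NC, a log2 change of 0.05 (SE 0.10, adjusted p = 0.712). These are gene totals and do not separate spliced from unspliced XBP1.

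The phosphatase regulators moved apart. PPP1R15A encodes GADD34, the stress-induced subunit that directs dephosphorylation of eIF2α (hg19 chr19:49375649-49379319, plus strand). It was at 30.7, 34.3 and 41.5 CPM in KO and 15.8, 17.1 and 15.4 in NC, and rose by a log2 change of 1.14 (SE 0.12, adjusted p = 7.50e-05). Every KO library was above every NC library. PPP1R15B, the constitutive counterpart, was lower by -0.21 (SE 0.07, adjusted p = 0.0267). That call was lost in 4 of the 6 fits that left out 1 library, and its sign turned to 0.17 (adjusted p = 0.0993) after the adjustment for length.

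Among the transcription factors, ATF4 (hg19 chr22:39916564-39918691, plus strand) stood at 293, 284 and 311 CPM in KO and 194, 222 and 188 in NC. Its groups did not overlap, and the log2 change was 0.56 (SE 0.08, adjusted p = 0.000513). ATF5, a related factor under similar translational control, rose by 0.47 (SE 0.08, adjusted p = 0.00145). DDIT3, which encodes the pro-apoptotic factor CHOP (hg19 chr12:57910371-57914300, minus strand), was at 9.15, 10.9 and 14.5 CPM in KO and 9.81, 8.45 and 8.97 in NC. One KO library lay within the NC range, and the change of 0.35 (SE 0.16) did not pass (adjusted p = 0.0891). Without KO replicate 1, the lowest of the 3, it was 0.50 (adjusted p = 0.00354). CEBPB, CEBPG and NUPR1 did not pass, with log2 changes from -0.14 to 0.19.

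CHAC1, a glutathione-degrading enzyme downstream of ATF4 (hg19 chr15:41245669-41248710, plus strand), had the highest log2 change of the members. It was at 37.4, 39.9 and 45.2 CPM in KO and 17.5, 19.6 and 17.2 in NC, a change of 1.17 (SE 0.10, adjusted p = 3.40e-05). TRIB3, a pseudokinase that feeds back on ATF4 (hg19 chr20:361273-378203, plus strand), was at 130, 150 and 153 CPM in KO and 81.7, 99.2 and 80.8 in NC. It rose by 0.72 (SE 0.10, adjusted p = 0.000422). For both genes every KO library was above every NC library. DDIT4, an inhibitor of mTORC1, and VLDLR, a lipoprotein receptor, did not pass (0.16 and -0.18).

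The amino acid genes had a median log2 change of 0.39. SLC7A5, the light chain of the large neutral amino acid transporter (hg19 chr16:87863629-87903113, minus strand), was at 110, 112 and 103 CPM in KO and 64.1, 62.7 and 67.1 in NC. It rose by 0.74 (SE 0.08, adjusted p = 7.32e-05). Its heavy chain partner SLC3A2 rose by 0.43 (SE 0.08, adjusted p = 0.00205). SHMT2, the mitochondrial serine hydroxymethyltransferase (hg19 chr12:57623494-57628718, plus strand), was at 189, 228 and 229 CPM in KO and 146, 142 and 137 in NC, a change of 0.60 (SE 0.09, adjusted p = 0.000510). PHGDH, the first enzyme of serine synthesis, rose by 0.39 and asparagine synthetase, ASNS, by 0.38 (adjusted p = 0.00366 and 0.00153). SLC7A1, a cationic amino acid transporter, rose by 0.34 (adjusted p = 0.0275), a call lost without KO replicate 2, NC replicate 1 or NC replicate 2. PSAT1, the next enzyme of serine synthesis, was at 0.14 and did not pass.

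SLC7A11, the cystine transporter (hg19 chr4:139085251-139163503, minus strand), went the other way. It was at 38.4, 26.2 and 39.5 CPM in KO and 56.7, 54.3 and 56.9 in NC, a log2 change of -0.69 (SE 0.14, adjusted p = 0.00268). Its groups did not overlap. Its transcript is the longest of the members in the deposited tables (8508 bases), and after the adjustment for length the change was -0.08 (adjusted p = 0.635).

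The ER chaperones had a median log2 change of 0.05, with 4 of 11 lower and 1 higher. DNAJB9, an ER-resident cochaperone of BiP (hg19 chr7:108210318-108215294, plus strand), was at 4.07, 3.32 and 3.23 CPM in KO and 7.91, 8.02 and 9.74 in NC, with a log2 change of -1.28 (SE 0.14, adjusted p = 1.00e-04). HSP90B1, the ER paralogue of HSP90 (hg19 chr12:104324188-104341704, plus strand), was at 115, 83.9 and 108 CPM in KO and 220, 220 and 224 in NC, and fell by 1.12 (SE 0.11, adjusted p = 6.66e-05). Every KO library lay below every NC library for both genes. DNAJC3, which inhibits PERK and also acts as a cochaperone (hg19 chr13:96329393-96447242, plus strand), was at 52.4, 32.4 and 38.8 CPM in KO and 80.9, 81.7 and 79.8 in NC, and fell by 0.97 (SE 0.15, adjusted p = 0.000587).

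HSPA5 encodes BiP, the main ER chaperone and a repressor of all 3 sensors (hg19 chr9:127997132-128003622, minus strand). It was at 140, 149 and 164 CPM in KO and 205, 190 and 198 in NC, a log2 change of -0.39 (SE 0.08, adjusted p = 0.00320). Its groups did not overlap, but after the adjustment for length the change was -0.14 and did not pass (adjusted p = 0.208). CALR, the calcium-binding lectin chaperone, rose by 0.30 (adjusted p = 0.00944), a call lost without NC replicate 1 or NC replicate 3. The other 6, PDIA4, PDIA6, SDF2L1, MANF, CRELD2 and HYOU1, lay between -0.13 and 0.28 and did not pass. After the adjustment for length PDIA4 (0.27) and HYOU1 (0.30) passed as higher. The 6 members with an ERSE match did not move together: CALR was higher, HSP90B1 and HSPA5 were lower, and CRELD2, PDIA6 and XBP1 did not pass.

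For ER-associated degradation, 3 of 4 genes fell, with a group median of -0.87. EDEM3, a mannosidase-like protein that marks glycoproteins for disposal (hg19 chr1:184659371-184723992, minus strand), was at 13.3, 11.2 and 12.3 CPM in KO and 36.5, 37.3 and 39.6 in NC. It fell by 1.63 (SE 0.09, adjusted p = 1.37e-05), the lowest value of any member. SEL1L, the adaptor of the HRD1 ubiquitin ligase (hg19 chr14:81937891-82000197, minus strand), was at 75.4, 47.4 and 56.7 CPM in KO and 128, 118 and 129 in NC, and fell by 1.07 (SE 0.15, adjusted p = 0.000336). EDEM1, a relative of EDEM3 (hg19 chr3:5229392-5261643, plus strand), was at 77.0, 79.9 and 80.4 CPM in KO and 123, 128 and 127 in NC, and fell by 0.67 (SE 0.07, adjusted p = 8.63e-05). All 3 were separated without overlap. Their transcripts are long, at 5698 bases for EDEM3, 7341 for SEL1L and 5871 for EDEM1. After the adjustment for length the changes were -1.21, -0.53 and -0.23, and all 3 still passed. HERPUD1, a membrane component of the same machinery, did not pass (0.17, adjusted p = 0.170).

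Per length, on the deposited TPM scale, the most abundant members in NC were CALR at 155 TPM, ATF4 at 55.6 and SLC3A2 at 50.4, and the least abundant was VLDLR at 0.293. In KO the same 3 stood at 226, 98.0 and 79.2 TPM. HSP90B1 went from 44.5 TPM in NC to 21.8 in KO, and ATF6 from 5.05 to 4.93.

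The changes ran with transcript length. Across the 39 members, Spearman's rho between log2 change and transcript length was -0.58, and across all 17240 genes it was -0.24; genes are not independent replicates and share the libraries, so these are descriptions. Among transcripts of 3312 bases or more, 9 of 14 members were lower and 2 were higher, beside 2019 lower and 748 higher of all 4310 genes of that length. Among those of 1348 to 2132 bases, 8 of 15 members were higher and 1, HSP90B1, was lower, beside 1275 and 784 of 4310. Between these lengths 2 of 7 members were higher and 1 lower, and of the 3 shorter members 0 were called. With offsets adjusted for length, 7 of the 11 lower members were still lower, beside 4173 of 17240 genes lower. In that fit 15 members were higher, beside 4475 genes. Of the amino acid genes 6 were higher. Of the chaperones 3 were higher (CALR, PDIA4 and HYOU1) and 3 lower. HSP90B1 (-1.16), DNAJB9 (-1.21) and EDEM3 (-1.21) moved by less than 1.5 times. The log2 change shrank to -0.32 for EIF2AK3 (adjusted p = 0.0395), -0.58 for DNAJC3, -0.53 for SEL1L and -0.23 for EDEM1 (adjusted p = 0.0427). With log2(TPM + 1) tested by limma, 23 members were higher and 5 lower, beside 5381 and 1171 of 11106 genes. The median of all genes shifted to 0.27. Of the chaperones 6 were then higher and 2 lower, and of the degradation genes 1 was higher and 3 lower. Without KO replicate 1, 20 members were higher, beside 4991 of 17757 genes. The 8 gained were DDIT3, CEBPB, NUPR1, DDIT4, PDIA4, SDF2L1, CRELD2 and HERPUD1. The part of length in these results was tested only through the adjustment.

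**Figure D2:**
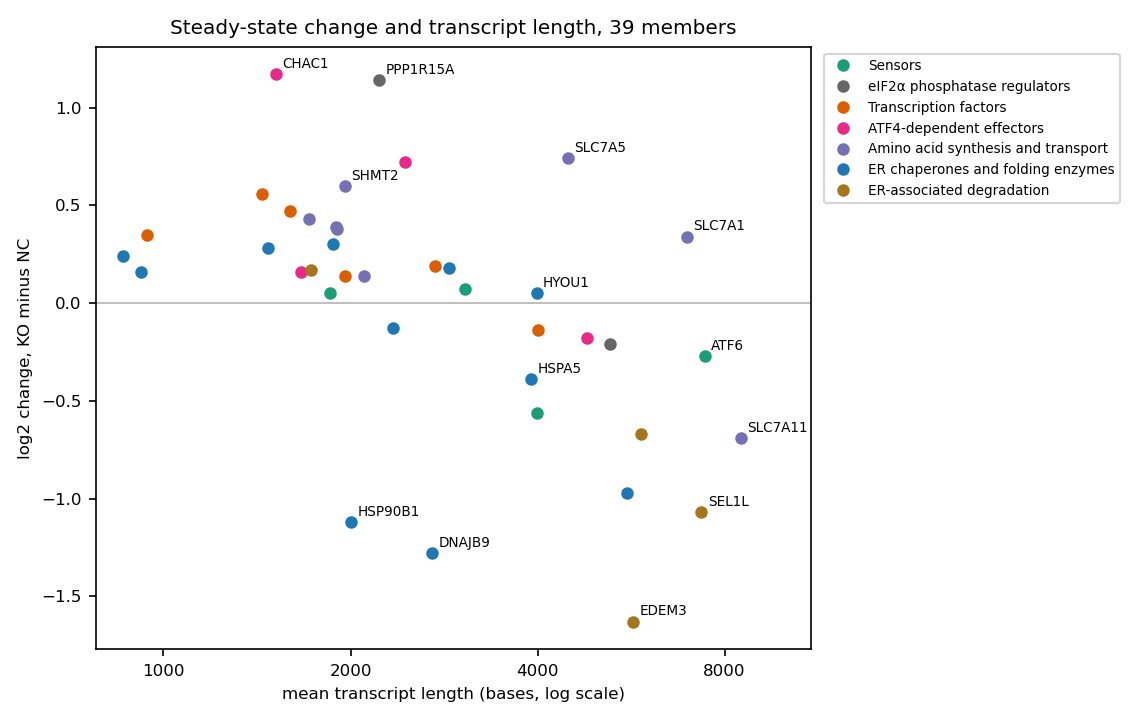
Steady-state log2 change, KO minus NC (y axis), against the mean transcript length in the deposited tables (x axis, log scale) for the 39 members, coloured by role. Apart from HSP90B1 at -1.12, members under 2132 bases lie above 0. Among the transcripts of 3312 bases or more, SLC7A5, SLC7A1 and, at 0.05, HYOU1 lie above 0.

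Other genes of the same pathways were counted from lists that were also chosen with earlier results of these data known. Their counts are therefore no independent check on the members. Of 24 other known ATF4 targets that were tested, 16 were higher and 2 lower, with a median of 0.44, beside 24.4% of all genes higher and 26.3% lower. The stress-induced factor ATF3 was at 24.5 ± 2.81 CPM in KO and 12.9 ± 1.29 in NC (SD, n = 3 each), and rose by 0.93 (SE 0.11, adjusted p = 0.000181 by edgeR), and the mTORC1 inhibitor SESN2 rose by 0.89. Of 41 other ER factors, 12 were higher (29.3%, near the share of all genes) and 16 lower (39%), with a median of -0.05: WFS1, an ER membrane protein, rose by 0.75, the translocation factor SEC63 fell by 1.21, and MBTPS2, the protease that completes ATF6 cleavage, fell by 1.19. Of 12 other eIF2 kinases and factors, 2 were higher and 3 lower; EIF2AK2, the double-stranded RNA-activated kinase PKR, fell by 1.22 (SE 0.12, adjusted p = 6.91e-05).

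At the label 0 h of the actinomycin D set, the amino acid genes were lower under the KO label and most ER chaperones were higher. SLC7A5, SLC7A11, SLC3A2, PHGDH and PSAT1 were each lower by a log2 change beyond -1.5, while CEBPG, DNAJB9 and EDEM1 were higher by more than 1.5. In all, 18 members were higher (46.2%), beside 35.5% of the 17715 genes tested, and 16 were lower (41%), beside 31.6%. By role, 7 of 8 amino acid genes were lower (median -1.63), 8 of 11 chaperones were higher (median 0.27), and 3 of 4 degradation genes were higher. The shift depends on scaling: TMM put the median of all genes at 0.06, scaling to ribosomal protein genes at 0.50 and the deposited molecule scale at 0.89. Under the last 2, 6 and 5 of the amino acid genes were still lower and 9 and 10 of the chaperones higher. Of all genes, 8804 of 17715 were higher and 3517 lower with ribosomal scaling. On the molecule scale 9341 of 16332 were higher and 1852 lower.

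SLC7A5 was at 2031 and 2091 CPM in the 0 h libraries labelled NC and at 503 and 531 in those labelled KO, a log2 change of -2.0 (SE 0.04, adjusted p = 5.21e-37). It was -1.55 with ribosomal scaling and -1.20 on the molecule scale. SLC3A2 was at 678 and 714 CPM under NC and 191 and 181 under KO (-1.90, SE 0.05, adjusted p = 5.16e-32). Both chains of this transporter were thus lower under KO without overlap. SLC7A11 was at 214 and 201 CPM under NC and 51.8 and 56.1 under KO (-1.95, SE 0.08, adjusted p = 9.18e-23). The serine synthesis enzymes were lower too: PHGDH at 297 and 303 CPM against 92.8 and 93.0 (-1.69, SE 0.05, adjusted p = 2.74e-28), and PSAT1 (hg19 chr9:80912041-80945009, plus strand) at 416 and 421 against 136 and 148 (-1.56, SE 0.05, adjusted p = 4.48e-27). For all 5 genes the labels stayed apart over all 10 libraries each. SLC7A1, at -0.19, turned to 0.26 with ribosomal scaling and 0.68 on the molecule scale, both past the threshold.

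ASNS was the exception among the amino acid genes, with 0.359 and 0.610 CPM under NC and 1.62 and 1.56 under KO at 0 h (1.71, SE 0.62, adjusted p = 0.0147). The call was lost without NC 0 h replicate 1 (adjusted p = 0.118). These levels are low beside the 211 to 294 CPM of the steady-state libraries. In the deposited actinomycin D annotation (hg19 chr7:97480989-97557753), 69.5% of the exon bases of ASNS are shared with the read-through gene CZ1P-ASNS on the same strand, so its values there are uncertain.

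Among the factors, ATF4 was at 130 and 132 CPM under NC and 219 and 215 under KO at 0 h (0.73, SE 0.05, adjusted p = 6.48e-17). CEBPG, a dimer partner of ATF4 (hg19 chr19:33864615-33873592, plus strand), was at 13.5 and 10.5 against 54.4 and 54.7 (2.18, SE 0.11, adjusted p = 3.80e-21). DDIT3 was at 1.93 and 1.55 against 4.20 and 5.21 (1.43, SE 0.30, adjusted p = 4.78e-05). It shares 65 exon bases with MARS1 on the opposite strand, and the sources used here do not give whether counting used strand. XBP1 was at 9.37 and 10.1 under NC and 12.6 and 11.0 under KO and did not pass (0.28, SE 0.14, adjusted p = 0.0697), but passed with ribosomal scaling at 0.73 and on the molecule scale at 1.15.

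Of the effectors, DDIT4 (hg19 chr10:74033682-74035794, plus strand) had the lowest value of the members at 0 h. It was at 16.5 and 12.3 CPM under NC and 1.77 and 3.87 under KO (-2.38, SE 0.23, adjusted p = 2.10e-10). CHAC1 was at 0 and 0.188 CPM under NC and 0.191 and 0.752 under KO; its fitted change of 2.26 (SE 0.98, adjusted p = 0.0402) rests on a few counts. The call was lost without KO 0 h replicate 2 (adjusted p = 0.527) or NC 0 h replicate 1 (adjusted p = 0.292). On the molecule scale CHAC1 did not pass either (adjusted p = 0.225). PPP1R15A was lower by -1.20 (adjusted p = 3.41e-11), by -0.75 with ribosomal scaling and by -0.45 on the molecule scale, where it did not pass (adjusted p = 0.0501).

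HSPA5 was at 1197 and 1221 CPM under NC and 1966 and 1880 under KO at 0 h (0.67, SE 0.03, adjusted p = 2.18e-22). DNAJB9 was at 3.95 and 4.69 against 19.4 and 17.2 (2.08, SE 0.20, adjusted p = 3.33e-12), and EDEM1 at 41.5 and 46.7 against 125 and 127 (1.51, SE 0.08, adjusted p = 2.43e-20). Both labels were separated at 0 h for each of these 3 genes. HSP90B1 and PDIA6 were lower, at -0.54 and -0.49, and both signs turned on the molecule scale (0.41 and 0.43). KHSRP itself was at 439 and 453 CPM against 139 and 149 (-1.63, SE 0.05, adjusted p = 3.86e-30).

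Over all labelled times, all 10 KO libraries were above all 10 NC libraries for 6 members (15.4%), beside 19.4% of all genes: ATF5, HSPA5, MANF, CRELD2, HYOU1 and EDEM1. All 10 were below for 8 (20.5%), beside 18.7%: NUPR1, VLDLR, PSAT1, PHGDH, SLC7A11, SLC7A5, SLC3A2 and SLC7A1. HYOU1, an ER chaperone of the HSP110 family, ranged from 598 through a median of 922 to 1052 CPM under KO and from 295 through 446 to 582 under NC. SLC7A5 ranged from 412 through 517 to 612 CPM under KO and from 1628 through 1861 to 2325 under NC.

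Of the 20 members called in both sets, 9 had the same sign (45%), beside 45.1% of the 5935 genes called in both among all those tested, so the share is that of the whole transcriptome. ATF4, ATF5, CHAC1, ASNS and CALR were higher in both, and ATF6, PPP1R15B, SLC7A11 and HSP90B1 were lower in both as scaled by TMM. Of the higher ones, CHAC1 and ASNS had 0 h NC libraries below 1 CPM. CHAC1 did not pass on the molecule scale (adjusted p = 0.225 by limma), and ASNS shares 69.5% of its exon bases with CZ1P-ASNS. The steady-state call of CALR was lost without NC replicate 1 or NC replicate 3. With length-adjusted offsets ATF6 (0.28) and PPP1R15B (0.17) changed sign in steady state and SLC7A11 went to -0.08, and on the molecule scale ATF6 (0.56), PPP1R15B (0.44) and HSP90B1 (0.41) changed sign at 0 h. PPP1R15A, PHGDH, SHMT2, SLC7A5, SLC3A2 and SLC7A1 were higher in the steady-state KO and lower at 0 h under the KO label, while HSPA5, DNAJB9, SEL1L, EDEM1 and EDEM3 did the reverse. At 0 h on the molecule scale, PPP1R15A did not pass, SHMT2 turned to 0.19 (adjusted p = 0.207) and SLC7A1 to 0.68. The tables of the sets were counted and normalized separately, and the difference between them was not tested.

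Across the labelled times, 14 of the 39 members had their highest mean at 4 h under NC and at 6 h under KO, 14 had their lowest mean there, and the rest had neither. Feedback and effector genes were highest there, among them DDIT4, XBP1, PPP1R15A, PPP1R15B, CEBPB and CHAC1, and chaperone genes such as CALR, PDIA4, PDIA6 and HYOU1 were lowest. By edgeR's F test over the 5 times, 36 of 39 members differed between times under NC (92.3%), beside 54.7% of all genes, and 34 under KO (87.2%), beside 55.9%. The pattern differed between the labels for 34 members (87.2%), beside 55.3%. Without NC 4 h in the contrast 27 members still differed under NC, beside 6409 of 17715 genes. Without KO 6 h 26 members did under KO, beside 7419 genes. With both times out, 23 members differed between labels, beside 5600 genes.

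**Figure D3:**
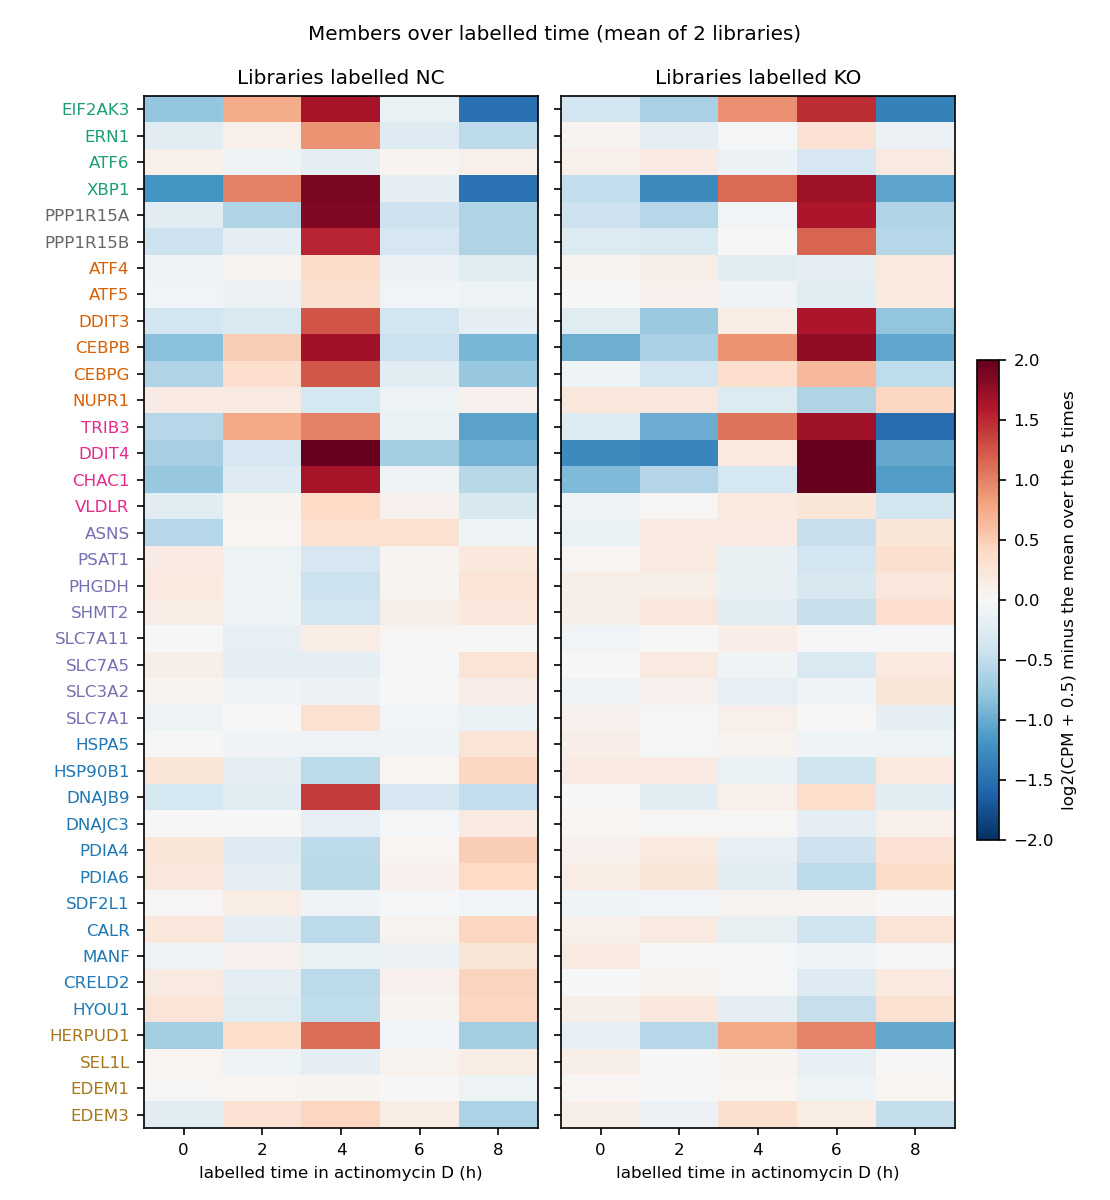
Each row is a member and each column a labelled time in hours, for libraries labelled NC (left) and KO (right); colour gives log2(CPM + 0.5), from the mean of 2 libraries, minus the mean over the 5 times. Rows of feedback and effector genes are highest at 4 h under NC and at 6 h under KO, where most chaperone rows are lowest.

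The highest mean fell at NC 4 h and KO 6 h for 14 members (35.9%), beside 22.6% of all genes. These were EIF2AK3, ERN1, XBP1, PPP1R15A, PPP1R15B, DDIT3, CEBPB, CEBPG, TRIB3, DDIT4, CHAC1, VLDLR, DNAJB9 and HERPUD1: both phosphatase regulators, all 4 effectors and none of the amino acid genes. The lowest mean fell there for another 14 members (35.9%), beside 26.5% of all genes, and 8 of these were chaperones. No member had its highest mean at 0 h under both labels, beside 2.78% of all genes. The 2 times were singled out after these values were seen. TMM factors, which divide the levels, were also highest there, at 1.083 and 1.08 for NC 4 h and 1.161 and 1.155 for KO 6 h. Whether the lowest means stay there under other scalings was not tested. With ribosomal scaling 37 members differed over times under NC and 35 under KO. PHGDH and CRELD2 then no longer passed under NC, nor did NUPR1, SHMT2 and PDIA6 under KO.

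DDIT4 was at 150 and 139 CPM at NC 4 h and 11.0 to 20 in the other 8 NC libraries. Under KO it was at 84.7 and 86 at 6 h and 1.77 to 10.2 elsewhere. The F test gave an adjusted p of 1.45e-19 under NC and 1.98e-21 under KO. The 2 libraries of each of these times were close to each other and lay far above the rest.

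PPP1R15B (hg19 chr1:204372509-204380945, minus strand) had the highest F of the members under NC. It was at 238 and 245 CPM at NC 4 h and 52.7 to 75.4 elsewhere (adjusted p = 8.67e-29), and at 124 and 134 at KO 6 h against 36.9 to 59.7 (adjusted p = 2.67e-24). PPP1R15A was at 118 and 121 CPM at NC 4 h and 20.1 to 28.6 elsewhere, and at 49.5 and 52.6 at KO 6 h against 9.71 to 17.3 (adjusted p = 3.93e-22 under KO). Both genes of the phosphatase thus shared the pattern.

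XBP1 showed a more graded order of labels. Under NC it was at 9.37 and 10.1 CPM at 0 h, 47.9 and 45.2 at 2 h, 86.3 and 85.2 at 4 h, 19.3 and 20.5 at 6 h, and 7.76 and 8.06 at 8 h (adjusted p = 1.49e-26). Under KO it was at 12.6 and 11.0 at 0 h, 7.83 and 5.41 at 2 h, 38.9 and 35.8 at 4 h, 53.0 and 57.7 at 6 h, and 8.10 and 7.47 at 8 h (adjusted p = 2.78e-25). The order of the means from high to low was thus 4, 2, 6, 0 and 8 h under NC and 6, 4, 0, 8 and 2 h under KO; the libraries of 0 and 8 h did not overlap under NC, and those of 2 and 8 h did under KO. Without the highest time XBP1 still differed between the other 4 under both labels (adjusted p = 2.48e-20 and 1.81e-20).

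CEBPB (hg19 chr20:48807120-48809227, plus strand), whose product forms dimers with ATF4 and CHOP, followed the order seen for XBP1 at its upper end. It was at 84.1 and 86.5 CPM at NC 4 h, and at 50.9 and 55.4 at KO 6 h against 6.01 to 29.8 elsewhere (adjusted p = 1.59e-23 under KO). It shares 26.6% of its exon bases with CEBPB-AS1 on the opposite strand. DDIT3 was at 5.50 and 7.44 CPM at NC 4 h against 1.35 to 2.27, and at 18.8 and 17.9 at KO 6 h against 2.68 to 6.30 (adjusted p = 1.55e-08 and 7.96e-13). CHAC1 was at 2.12 and 3.14 at NC 4 h against 0 to 0.708, and at 14.1 and 12.3 at KO 6 h against 0.101 to 1.31 (adjusted p = 3.75e-07 and 1.67e-12). Without that time, CHAC1 no longer passed under either label (adjusted p = 0.237 and 0.305), nor did DDIT3 under NC (0.893).

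ATF4 moved less, and not to the same time. It was at 172 and 183 CPM at NC 4 h and 116 to 146 elsewhere under NC (adjusted p = 2.40e-13). Under KO it was at 219 and 215 at 0 h, 224 and 228 at 2 h, 183 and 177 at 4 h, 183 and 186 at 6 h, and 241 and 238 at 8 h (adjusted p = 1.76e-10). KO 6 h was thus among its low times, and the test of the genotype by time pattern gave an adjusted p of 9.88e-15.

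CALR (hg19 chr19:13049423-13055303, plus strand) showed the mirror image of XBP1. Under NC it was at 1219 and 1209 CPM at 0 h, 900 and 934 at 2 h, 722 and 737 at 4 h, 1099 and 1112 at 6 h, and 1423 and 1401 at 8 h (adjusted p = 4.47e-26). Under KO it was at 1410 and 1375 at 0 h, 1455 and 1473 at 2 h, 1186 and 1158 at 4 h, 977 and 984 at 6 h, and 1525 and 1557 at 8 h. The lowest pair of each label lay below all its other libraries. PDIA4, a protein disulfide isomerase (hg19 chr7:148700143-148725597, minus strand), was at 339 and 321 CPM at NC 4 h against 395 to 675 elsewhere (adjusted p = 2.27e-25). HSP90B1 was at 941 and 997 at NC 4 h against 1221 to 1873 (adjusted p = 5.09e-25). PDIA6 (hg19 chr2:10923517-10977838, minus strand) was at 301 and 303 at KO 6 h against 365 to 569 (adjusted p = 1.07e-23), a difference that did not pass with ribosomal scaling (adjusted p = 0.785). It shares 32.7% of its exon bases with ATP6V1C2 on the opposite strand.

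HSPA5, DNAJB9 and SDF2L1 were the 3 chaperones whose lowest mean was not at NC 4 h and KO 6 h. Under NC HSPA5 was at 1131 to 1221 CPM from 0 to 6 h and at 1457 and 1470 at 8 h, and under KO it went from 1966 and 1880 at 0 h to 1663 and 1598 at 8 h. Both tests over time passed (adjusted p = 4.60e-14 and 4.76e-09), and so did the genotype by time test (5.68e-14). The 4 members with an ERSE match whose mean was lowest at NC 4 h and KO 6 h were CALR, CRELD2, HSP90B1 and PDIA6; XBP1 was highest there. The targeted gene KHSRP varied between 375 and 460 CPM under NC (adjusted p = 2.04e-06) and between 134 and 156 under KO (0.00955), and the latter did not pass without KO 6 h (0.182).

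**Figure D4:**
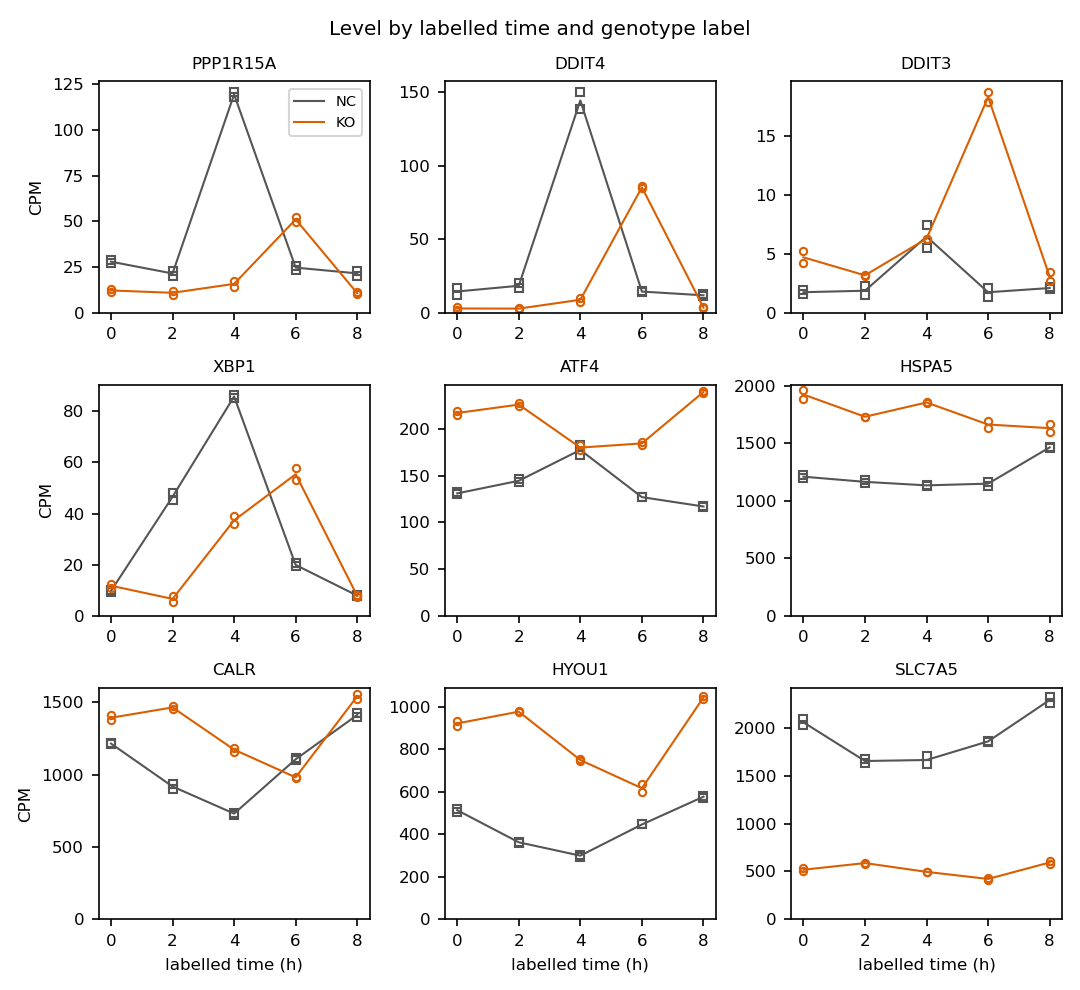
CPM (y axes, from 0) against labelled time in hours (x axes) for 9 members; symbols are single libraries, squares for NC and circles for KO, and lines join the means of 2. PPP1R15A, DDIT4, DDIT3 and XBP1 are highest at NC 4 h and KO 6 h, CALR and HYOU1 are lowest there, and SLC7A5 is lower under KO at each time.

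The 77 other pathway genes were read at the same times. The lowest mean fell at NC 4 h and KO 6 h for 26 of 41 other ER factors, 8 of 12 other eIF2 kinases and factors and 11 of 24 other ATF4 targets, and the highest for 3, 0 and 6 of them; over all genes these shares were 26.5% and 22.6%. The stress genes ATF3, SESN2, GDF15, SLC38A2, JDP2 and CTH made up these 6. At 0 h, STC2, a secreted glycoprotein induced by ATF4, was at 592 ± 2.93 CPM under KO and 32.9 ± 1.43 under NC (SD, n = 2 each), a difference of 4.17 on the log2 scale (SE 0.05; adjusted p = 1.60e-42 by edgeR). ERO1B, an ER oxidase, was higher by 4.14 and the stress cytokine GDF15 by 3.84, while CREB3L2, DERL3 and CTH were lower, at -2.80, -2.25 and -2.06.

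A decline over labelled time, the study's measure of transcript lifetime, was tested as a slope of log2 level per hour. TMM scaling sets the median slope of all genes near 0 (-0.00 per hour under each label), so a decline shared by most transcripts cannot show in these slopes, which are relative to the other genes. No member passed in either direction under NC, under KO or for the difference between them, and neither did any other gene: 0% of 17715 in each of the 6 cases, by edgeR. The fit holds a straight line per label, so a rise and fall over the times counts as spread. For XBP1 and DDIT4 the SE of the slope under NC was 0.21 and 0.31 per hour. These tests therefore cannot show that lifetimes were equal. At an unadjusted p under 0.05 there were 403 genes (2.27%) under NC, 635 (3.58%) under KO and 529 (2.99%) for the difference, of which 0, 2 and 2 were members. DESeq2 called 2, 10 and 6 genes after adjustment, 0 of them members. Slopes of the members ranged from -0.16 to 0.10 per hour under NC and from -0.04 to 0.62 under KO. On the molecule scale, for which the sources used here give no method, 23 members declined under NC and 24 under KO, with 7846 and 9032 of all genes.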

How the data were processed

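Steady-state tables hold gene lengths, expected counts, TPM and FPKM as the authors deposited them, per the file headers. The actinomycin D tables hold read counts, RPM, RPKM, molecule signal values and the log2 of RPKM and of molecules as deposited, per the file headers; the sources used here do not give how the molecule signal was made. STAR, RSEM, Bowtie2, deepTools and hg19 are named in the submitters' processing notes. Expected counts were rounded (10.2% were not whole) and 45 pseudoautosomal copies were added to their partners. The 37 mitochondrial genes had 0 counts in the actinomycin D tables. All genes entered tests by edgeR 4.0.16 under R 4.3.3 (low-count filter filterByExpr, TMM scaling, robust quasi-likelihood F test, Benjamini-Hochberg over all genes, threshold 0.05). The steady-state fit held 6 libraries and the actinomycin D fits all 20, with 1 mean per genotype and time, or genotype, hours and their interaction for slopes. SE denotes the log2 change's size divided by the square root of F. The tests were checked on simulated data in which few genes changed. Many genes changed in the real sets, so that check does not cover shifts shared by many genes.

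Members and lists were chosen with earlier results of these data known. Values in every library were given for members past the threshold with an absolute steady-state log2 change of at least 0.6, the 6 most changed each way at 0 h, the 6 with the highest F over times per label, and ATF4, DDIT3, CHAC1, HSPA5, XBP1 and KHSRP, for which slopes are given as counts only; of other pathway genes, the 3 most changed each way were named. Alternatives were DESeq2 1.42.0 and its size factors, no count filter, length-adjusted offsets, limma 3.58.1 on log2(TPM + 1) of genes at 1 TPM or more, scaling to 72 ribosomal protein genes, limma on the molecule scale, a replicate block, each library left out, and, chosen after seeing the data, NC 4 h or KO 6 h left out of the contrast. No replicate pair agreed within sampling noise (chi-square per degree of freedom 3.81 to 42.8). The summed level of 1 marker list is not reported here.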

Additional observations from a re-analysis of the deposited data

Results flagged for a closer look

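The pattern over labelled times differed between the genotype labels for 34 of the 39 members by edgeR's test of the interaction, which is why this result is given here. Of all genes tested, 55.3% passed the same test. With the labels 4 h and 6 h left out of the contrast, 23 members passed, beside 5600 of 17715 genes.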

How the results depend on the processing

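The members' counts kept within 1.5 times of the reported values under DESeq2, its size factors, no count filter and the replicate block, apart from the values that follow. In the steady-state set limma on log2(TPM + 1) gave 23 members higher, 5 lower and 1171 genes lower in all, length-adjusted offsets gave 7 members lower, and leaving out 1 library at a time gave 10 to 20 members higher. XBP1 changed sign at -0.01 with length-adjusted offsets, at -0.01 without KO replicate 3 and at -0.00 without NC replicate 2, with a range of -0.01 to 0.15 when 1 library was left out, and passed the threshold in none of these fits. At 0 h, 7 members were lower on the molecule scale, and 3517 genes with ribosomal scaling and 1852 on the molecule scale. With NC 4 h left out, 6409 genes differed over times under NC, and with 4 h and 6 h left out 5600 differed in pattern. For slopes, the molecule scale gave 25 genes rising and 7846 falling under NC (members falling 23), 17 and 9032 under KO (members falling 24), and 1 with a lower difference; DESeq2 gave 2 falling under NC, 5 and 5 under KO, and 3 and 3 for the difference. With 1 library left out, 0 to 2 genes rose and 0 fell under NC, 0 to 1 rose and 0 to 1 fell under KO, and the difference was higher for 0 to 1 and lower for 0 to 2. The cause of these changes was not tested beyond the construction of each alternative.

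Replicate numbers did not pair the samples: deviations of same-numbered libraries correlated at -0.15 to 0.11 (steady state) and -0.04 to 0.05 (actinomycin D), and 2 of 6 steady-state libraries correlated best with their own number. With the replicate block 22 of 23 steady-state calls among the members were kept (PPP1R15B was lost), and 34 calls at 0 h, 36 over times under NC and 34 under KO stood. Low counts limit CHAC1 and ASNS at 0 h of the actinomycin D set, where their NC libraries were below 1 CPM. ASNS also shares 69.5% of its exon bases there with CZ1P-ASNS.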
